A study of Mus musculus with 6 samples.

Results

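The 10 genes described here are Nos2, Arg1, Arg2, Ass1, Asl, Slc7a1, Slc7a2, Odc1, Sat1 and Srm, a set defined by name, which encode the enzymes and transporters that import arginine and convert it to nitric oxide, urea or polyamines. All 10 were found by symbol among the 36706 genes of the deposited tables, and all 10 passed the filter on low counts. Messenger RNA was sequenced from wild-type mouse bone marrow cells grown in GM-CSF at 20 ng/mL, with fresh medium on day 3 and day 5. The cells of 3 libraries received 4-octyl itaconate (4-OI) on top of interferon gamma (IFN-γ), and those of the other 3 received IFN-γ alone, so every library is from IFN-γ-treated cells and none from untreated ones. 4-OI is a membrane-permeant form of itaconate, a metabolite that activated myeloid cells make from the citric acid cycle. The labels give neither the doses nor the durations of 4-OI and IFN-γ, nor the age or number of mice. Nothing says that replicates came from separate cultures, so the p-values rest on a spread between libraries that may be technical. The cells are labelled dendritic cells, although the sample titles abbreviate them as macrophages.

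Arginine sits at a branch point in myeloid cells. Inducible nitric oxide synthase, the product of Nos2, turns it into nitric oxide and citrulline, and Ass1 and Asl rebuild arginine from that citrulline. Arginases turn arginine into urea and ornithine, from which Odc1 makes putrescine, the first polyamine. In mouse macrophages, IFN-γ is classically tied to the nitric oxide branch and IL-4 to the Arg1 branch.

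The libraries held 19656368 to 29244717 counts with IFN-γ and 4-OI and 21710639 to 27510232 with IFN-γ alone, at which 3 counts correspond to 0.103 to 0.153 CPM, the counts scaled to a common library size; this limit covers counting error only. IFN-γ replicate 1 stood apart from the other IFN-γ libraries on the second principal component, at 32.0 against -19.1 and -16.8. It also held the highest value of its group for 3 of the 10 genes (Nos2, Slc7a1 and Slc7a2) and the lowest for the other 7, so each change is also given without it. Those 3 are the longest of the 10 by deposited length, at 4296, 7379 and 9067 bases, and Odc1, at 2612 bases, is the next. With 4-OI, replicate 3 was the lowest of its group for the same 3 genes and for Arg2. Whether differences between libraries follow gene length was not tested. Markers of dendritic cells and of macrophages were both present in every group, and none of the listed markers of any cell type was at 0 counts in all libraries. Of 10 tested dendritic cell markers, 8 were lower and none higher with 4-OI, with sums of 6062 to 7009 CPM with 4-OI and 7624 to 9319 CPM with IFN-γ alone. Of 9 macrophage markers, 2 were higher and 2 lower, with sums of 2693 to 2833 CPM with 4-OI and 2120 to 2200 CPM with IFN-γ alone. Monocyte markers were lower in 4 of 5 cases, with sums of 886 to 995 CPM with 4-OI and 1807 to 2328 CPM without it. Of 8 neutrophil markers, 2 rose and 5 fell, with sums of 1954.5 to 2686 CPM with 4-OI and 1561 to 2295 CPM with IFN-γ alone. Mast cell and basophil markers fell in 5 of 5 cases, with sums of 62.4 to 70.5 CPM with 4-OI and 189 to 198 CPM with IFN-γ alone, and markers of proliferating cells in 5 of 7, with sums of 203 to 212 CPM with 4-OI and 473 to 613 CPM with IFN-γ alone. In bulk RNA, fewer cells of a type and less RNA per cell cannot be told apart, and the part of these cell types in the results that follow was not tested.

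The comparison asked how 4-OI altered gene expression in cells given IFN-γ. All 10 genes passed a Benjamini-Hochberg adjusted p of 0.05 in edgeR's quasi-likelihood test, 6 of them higher and 4 lower with 4-OI. Of all 14011 genes tested, 48.1% passed, 22.7% as higher and 25.4% as lower. The 2 groups did not overlap in CPM for any of the 10 genes, as was also the case for 59.5% of all genes tested. Of the arginases, Arg2 rose and Arg1 fell, and of the transporters Slc7a1 rose and Slc7a2 fell. In the polyamine branch, Odc1 and Sat1 rose and Srm fell. Ass1 and Asl, of citrulline recycling, both rose, and Nos2 fell. The median log2 fold change was 0.63 over the 10 genes and -0.01 over all genes tested. CPM are scaled by TMM factors, which set the typical gene to no change; scaled by total counts alone, the median of all tested genes was -0.27, and none of the 10 genes changed direction.

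**Figure D1:**
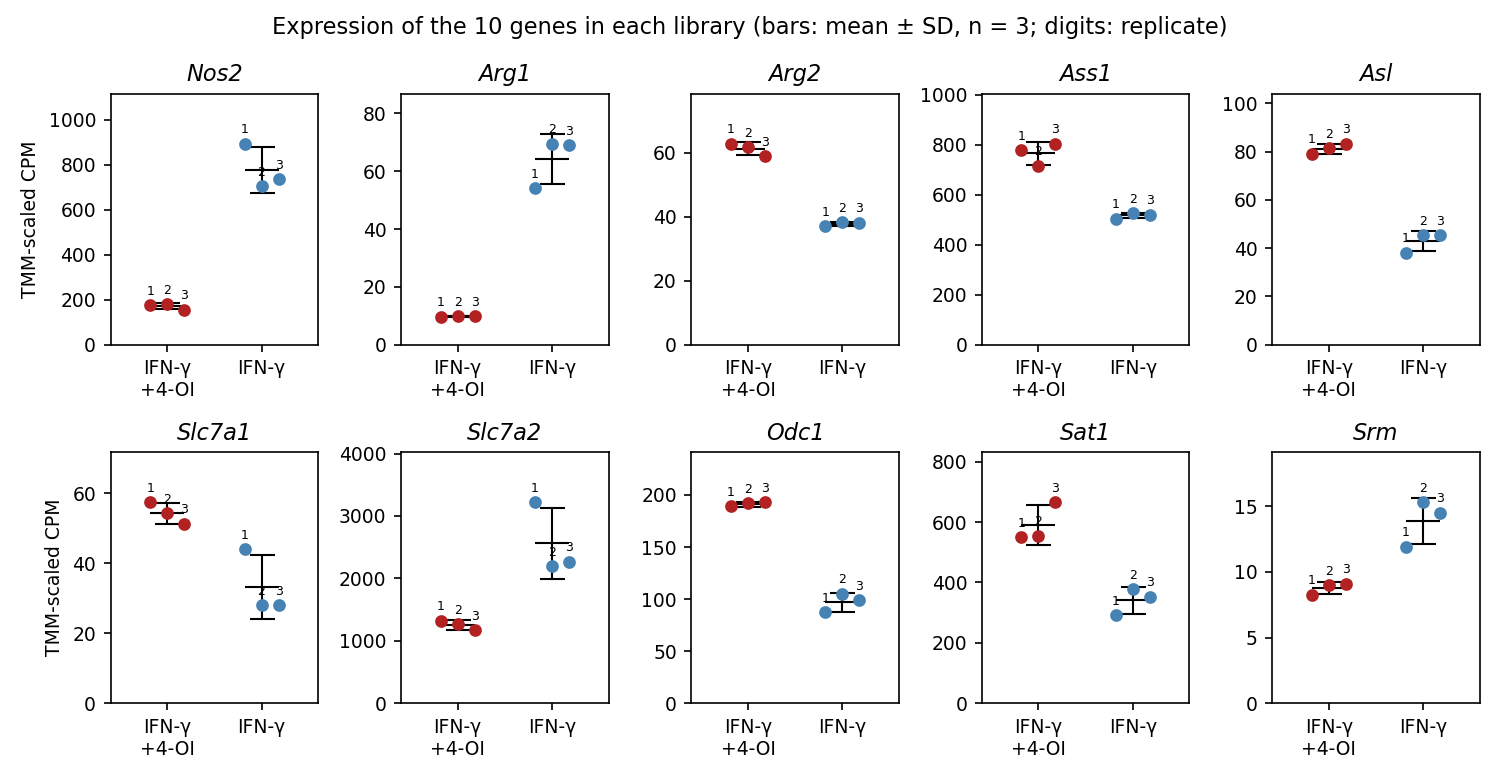
TMM-scaled CPM of each of the 10 genes (one panel each, y axes from 0) in the 3 IFN-γ+4-OI libraries (left, red) and the 3 IFN-γ libraries (right, blue), with digits for the replicate and black bars for mean ± SD. Red and blue points do not overlap in any panel, and replicate 1 of the IFN-γ group is the highest of its group for Nos2, Slc7a1 and Slc7a2 and the lowest for the other 7 genes.

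Nos2, inducible nitric oxide synthase, makes nitric oxide for killing of microbes and for signalling. It stood at 176, 180 and 155 CPM in the libraries with 4-OI (replicates 1, 2 and 3), against 894, 705 and 735 CPM in those with IFN-γ alone. The highest library with 4-OI was well below the lowest without it. Nos2 averaged 170 ± 13.2 CPM with 4-OI and 778 ± 101 CPM with IFN-γ alone (SD, n = 3 each), a 4.57-fold lower level (log2 fold change -2.19 ± 0.12, SE; edgeR adjusted p = 7.39e-06). Without IFN-γ replicate 1 it was 4.25-fold lower. Its size of change was above that of 96.3% of the genes tested. The gene lies on chromosome 11, 78811613 to 78851052, plus strand, as deposited. None of the 10 genes starts at its RefSeq position on GRCm38, although 9 of them have the same span there. The deposited coordinates are thus not those of GRCm38, although the processing notes name mm10.

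Of 17 listed genes of the other synthases, their cofactor and nitric oxide handling, 13 were tested, 2 of which were higher and 2 lower, with a median log2 fold change of 0.16. Gch1, the first enzyme of synthesis of the cofactor tetrahydrobiopterin, averaged 57.6 ± 5.01 CPM with 4-OI and 37.6 ± 5.90 CPM with IFN-γ alone (log2 fold change 0.62 ± 0.13; edgeR adjusted p = 0.00560). It went up where Nos2 went down. Nostrin, whose product binds the endothelial synthase, fell by 0.71 on the log2 scale (adjusted p = 6.04e-04 in edgeR). The other synthase genes, Nos1 and Nos3, were too low to be tested.

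The arginase genes went opposite ways. Arg1 encodes the cytosolic arginase of alternatively activated macrophages and liver. It stood at 9.60, 9.92 and 9.76 CPM in the libraries with 4-OI, against 54.2, 69.5 and 68.9 CPM in those with IFN-γ alone. The 3 libraries with 4-OI were almost alike, while IFN-γ replicate 1 was the lowest of its group. The means were 9.76 ± 0.156 CPM with 4-OI and 64.2 ± 8.65 CPM with IFN-γ alone (SD, n = 3 each), so that Arg1 was 6.57-fold lower (log2 change -2.72 ± 0.12, SE; adjusted p = 2.83e-06 in edgeR), and 7.11-fold lower without IFN-γ replicate 1. Of the 10 genes it changed most, by more than 98.2% of all genes tested. It lies on chromosome 10, 24791105 to 24803368, minus strand. Of its exon bases, 11.0% lie opposite Gm40616, a gene with 8 to 47 counts per library, which also fell (log2 change -1.75; adjusted p = 0.00138 in edgeR); its part in the fall of Arg1 was not tested.

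Arg2 encodes the mitochondrial arginase. It stood at 62.8, 61.8 and 58.9 CPM with 4-OI, against 37.1, 38.3 and 38.1 CPM with IFN-γ alone. Libraries within each group lay close together. Arg2 averaged 61.2 ± 2.02 CPM with 4-OI and 37.8 ± 0.615 CPM with IFN-γ alone, 1.62-fold higher (log2 fold change 0.69 ± 0.08, SE; adjusted p = 1.91e-04 in edgeR), and 1.59-fold higher without IFN-γ replicate 1. The gene lies on chromosome 12, 79177562 to 79203075, plus strand, where 20.1% of its exon bases face Vti1b and 12.6% face Gm40462 on the other strand. The strand setting of the counting is not given in the sources used here, so reads of Arg2 may include some of theirs. Neither passed the test in edgeR, Vti1b changing by 0.21 (adjusted p = 0.256) and Gm40462 by -0.74 (adjusted p = 0.182) on the log2 scale; their part in the rise of Arg2 was not tested.

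Per length, the more abundant arginase transcript was not the same in both groups. Arg1 made up 12.8%, 13.3% and 13.7% of the summed TPM of both arginases in the libraries with 4-OI, against 58.4%, 63.5% and 63.5% in those with IFN-γ alone. Arg2 was thus the more abundant in every library with 4-OI and Arg1 in every library without it. The summed level was 88.2 ± 10.2 TPM with 4-OI and 161 ± 3.88 TPM with IFN-γ alone. Within a library, the ratio of Arg2 to Arg1 per kilobase was 6.29 to 6.81 with 4-OI and 0.574 to 0.713 with IFN-γ alone, a difference of 3.40 on the log2 scale. Of 7 ratios compared, this one differed most. Exact two-sided permutation of 3 against 3 libraries gave p = 0.1 for it (adjusted over the 7 ratios, 0.14), which is the smallest p this design allows.

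Nos2 and Arg1 both fell, and the groups overlapped in their ratio. Within a library, Nos2 per kilobase was 6.28, 6.24 and 5.46 times Arg1 with 4-OI, against 5.66, 3.49 and 3.66 times with IFN-γ alone. IFN-γ replicate 1 lay above the third library with 4-OI (difference in log2 ratio 0.52; exact permutation p = 0.2, two-sided, n = 3 each). Without IFN-γ replicate 1 the difference was 0.74, and without it and 4-OI replicate 3 it was 0.81. Nos2 is the longer gene, at 4296 bases against 1477 for Arg1, and the part of length in this overlap was not tested.

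The genes of citrulline recycling rose together. Ass1, argininosuccinate synthase, joins citrulline to aspartate. It stood at 778, 716 and 804 CPM with 4-OI, against 504, 526 and 520 CPM with IFN-γ alone. Every library with 4-OI was above every library without it. The means were 766 ± 45.1 CPM with 4-OI and 517 ± 11.7 CPM with IFN-γ alone, a 1.48-fold rise (log2 fold change 0.57 ± 0.09, SE; adjusted p = 0.00105 in edgeR), and 1.46-fold without IFN-γ replicate 1. With total-count scaling the log2 fold change was 0.31 and the gene passed (edgeR adjusted p = 0.00992, against 1.22e-11 to 0.00992 over all settings tried). The gene lies on chromosome 2, 31360282 to 31410682, plus strand. On the deposited TPM scale the groups overlapped, at 782 to 887 TPM with 4-OI and 685 to 809 TPM with IFN-γ alone.

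Asl, argininosuccinate lyase, releases arginine from the product of Ass1. It stood at 79.1, 81.5 and 83.3 CPM with 4-OI, against 38.1, 45.3 and 45.4 CPM with IFN-γ alone. Every library with 4-OI was well above those without it. Asl averaged 81.3 ± 2.09 CPM with 4-OI and 42.9 ± 4.17 CPM with IFN-γ alone, a 1.89-fold rise (log2 fold change 0.92 ± 0.09, SE; adjusted p = 1.37e-04 in edgeR), and 1.79-fold without IFN-γ replicate 1. Asl lies on chromosome 5, 130040099 to 130053222, minus strand. Ass1 stayed far more abundant than Asl per length, and the ratio of Asl to Ass1 was 0.0701 to 0.0785 with 4-OI and 0.0522 to 0.0602 with IFN-γ alone (difference in log2 ratio 0.36; exact permutation p = 0.1, the smallest possible). Since Nos2 fell while Ass1 rose, Nos2 per kilobase was 0.0733 to 0.0954 times Ass1 with 4-OI, against 0.509 to 0.674 times with IFN-γ alone (difference in log2 ratio -2.75; exact permutation p = 0.1).

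Promoter sequences are shown for the 4 of the 10 genes that the RefSeq table of GRCm38.p6 holds, Ass1, Slc7a1, Odc1 and Sat1, which are also 4 of the 6 that rose. Positions of the windows are on that assembly and cannot be set beside the gene coordinates given above, which are not. Each window runs from 250 bases before to 50 bases after the start of transcription, 5′ to 3′ on the gene's strand. They were searched on both strands for motifs of factors known to act on these pathways: GAS (TTCNNNGAA) and ISRE (GAAANNGAA), elements of interferon-responsive genes, NF-κB (GGGANTTTC), the E-box of MYC (CACGTG), the antioxidant response element of NRF2 (TGACNNNGC), AP-1 (TGANTCA), C/EBP (TTNNGCAA) and the TATA box (TATAAA). Capitals mark the matches, none of which overlapped another. Among all 32851 promoters of the table, these motifs occurred in 8.30%, 8.56%, 1.11%, 7.15%, 12.4%, 7.81%, 10.8% and 13.6%, in that order. The window of Ass1, on the plus strand of chr2:31470020-31470319, held an E-box at position -36 from the start.
Ass1: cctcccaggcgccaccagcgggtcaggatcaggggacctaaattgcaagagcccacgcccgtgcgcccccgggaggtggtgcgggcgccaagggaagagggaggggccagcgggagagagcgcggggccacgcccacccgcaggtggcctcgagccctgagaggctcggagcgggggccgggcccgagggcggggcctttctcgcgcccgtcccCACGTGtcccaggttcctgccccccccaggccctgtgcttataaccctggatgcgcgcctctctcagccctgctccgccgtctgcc

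Arginine enters these cells through cationic amino acid transporters, and their genes went opposite ways. Slc7a2 encodes CAT2, which in mouse macrophages supports nitric oxide production. It stood at 1322, 1264 and 1166 CPM with 4-OI, against 3220, 2194 and 2265 CPM with IFN-γ alone. IFN-γ replicate 1 was far above its group, but the other IFN-γ libraries were also above every library with 4-OI. The means were 1251 ± 78.6 CPM with 4-OI and 2559 ± 573 CPM with IFN-γ alone (SD, n = 3 each), so that Slc7a2 was 2.05-fold lower (log2 fold change -1.03 ± 0.16, SE; adjusted p = 0.00123 in edgeR), and 1.79-fold lower without IFN-γ replicate 1. It lies on chromosome 8, 41315404 to 41375107, plus strand.

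Slc7a1 encodes CAT1, the transporter most cell types use. It stood at 57.5, 54.3 and 51.4 CPM with 4-OI, against 44.0, 28.0 and 28.1 CPM with IFN-γ alone. Replicate 1 was again the highest of the IFN-γ libraries, and here it lay nearest to those with 4-OI. Slc7a1 averaged 54.4 ± 3.01 CPM with 4-OI and 33.3 ± 9.20 CPM with IFN-γ alone, 1.63-fold higher (log2 fold change 0.71 ± 0.18, SE; adjusted p = 0.0119 in edgeR), and 1.93-fold higher without IFN-γ replicate 1. It was the only one of the 10 calls lost under any setting tried: with total-count scaling its log2 fold change was 0.44 (edgeR adjusted p = 0.0938, against 7.58e-17 to 0.0938 over all settings). The gene lies on chromosome 5, 148264220 to 148336714, minus strand. On the TPM scale the groups overlapped, at 11.1 to 14.5 TPM with 4-OI and 8.05 to 15.6 TPM with IFN-γ alone.

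Within a library the balance of both transporters was nearly constant in each group. Per kilobase, Slc7a2 was 18.7, 18.9 and 18.5 times Slc7a1 with 4-OI, against 59.6, 63.7 and 65.7 times with IFN-γ alone. IFN-γ replicate 1, which was high for each gene, was not high for their ratio. The difference was -1.75 on the log2 scale (exact permutation p = 0.1, two-sided, the smallest possible). Slc7a2 nonetheless made up a mean of 94.9% of the summed TPM of the pair with 4-OI and 98.4% with IFN-γ alone. Of 8 further genes of cationic amino acid transport, 5 were tested, 2 higher and 1 lower, with a median log2 fold change of 0.04. Slc3a2, the heavy chain that several exchangers share, rose, at 870 ± 33.1 CPM with 4-OI and 354 ± 36.8 CPM with IFN-γ alone (edgeR adjusted p = 3.67e-05). Slc7a7, which pairs with it to exchange cationic for neutral amino acids, fell by 0.68 on the log2 scale (adjusted p = 6.26e-04 in edgeR). Slc7a3, a further cationic transporter, averaged 1.95 ± 0.335 CPM with 4-OI and 0.913 ± 0.349 CPM with IFN-γ alone, 1.06 higher on the log2 scale (adjusted p = 0.0223 in edgeR). It no longer passed when total counts set the scale (adjusted p = 0.0645 in edgeR), nor when 4-OI replicate 1 (0.0730) or 4-OI replicate 3 (0.0501) was left out.

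The table holds 2 promoter windows of Slc7a1, both on the minus strand. The first, chr5:148399855-148400154, held an AP-1 match at position -123 from its start and, in reverse orientation, a match to the antioxidant response element at -11. The second, chr5:148392766-148393065, held a GAS match at position -146 and a TATA box at -28. Which start was used was not measured here.
Slc7a1, first window: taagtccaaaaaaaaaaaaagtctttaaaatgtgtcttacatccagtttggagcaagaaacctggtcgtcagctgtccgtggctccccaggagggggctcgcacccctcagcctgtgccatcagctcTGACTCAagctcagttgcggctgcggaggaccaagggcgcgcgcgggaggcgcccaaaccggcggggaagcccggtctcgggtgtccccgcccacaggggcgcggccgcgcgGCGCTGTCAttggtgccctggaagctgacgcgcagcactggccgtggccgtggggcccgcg
Slc7a1, second window: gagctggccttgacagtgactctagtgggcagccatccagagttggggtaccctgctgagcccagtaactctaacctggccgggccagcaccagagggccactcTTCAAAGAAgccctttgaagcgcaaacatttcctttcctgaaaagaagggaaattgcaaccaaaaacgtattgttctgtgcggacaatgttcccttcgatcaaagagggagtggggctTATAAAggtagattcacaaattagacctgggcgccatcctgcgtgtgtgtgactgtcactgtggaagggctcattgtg

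**Figure D2:**
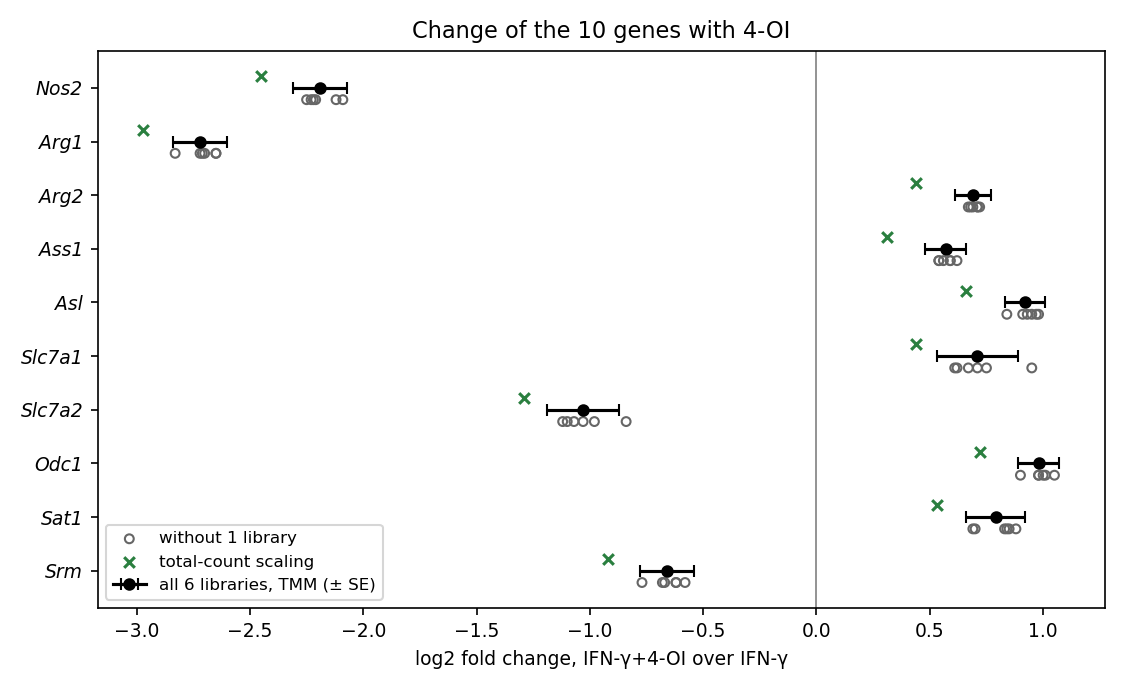
Log2 fold change of each gene, IFN-γ+4-OI over IFN-γ (x axis), with all 6 libraries (black, ± SE), without each single library (open circles) and with total-count scaling (green crosses). Arg1 and Nos2 lie farthest from 0, at -2.72 and -2.19, and no circle or cross falls on the other side of 0 from its black point.

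In the polyamine branch, the first enzyme and the catabolic enzyme rose and spermidine synthase fell. Odc1, ornithine decarboxylase, makes putrescine and is the regulated entry to the branch. It stood at 189, 192 and 193 CPM with 4-OI, against 87.1, 105 and 99.0 CPM with IFN-γ alone. The libraries with 4-OI were nearly identical and all above the others. Odc1 averaged 191 ± 2.16 CPM with 4-OI and 96.9 ± 8.88 CPM with IFN-γ alone, a 1.97-fold rise (log2 fold change 0.98 ± 0.09, SE; adjusted p = 6.92e-05 in edgeR), and 1.87-fold without IFN-γ replicate 1. It lies on chromosome 12, 17594809 to 17601503, plus strand.

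Srm, spermidine synthase, converts putrescine to spermidine. It stood at 8.25, 8.98 and 9.10 CPM with 4-OI, against 11.9, 15.3 and 14.5 CPM with IFN-γ alone. It was the least abundant of the 10 in CPM, and the groups were separate. The means were 8.78 ± 0.461 CPM with 4-OI and 13.9 ± 1.75 CPM with IFN-γ alone, 1.58-fold lower (log2 fold change -0.66 ± 0.12, SE; adjusted p = 0.00238 in edgeR), and 1.70-fold lower without IFN-γ replicate 1. It lies on chromosome 4, 148675970 to 148679076, plus strand. Within a library, Odc1 per kilobase was 11.6, 10.9 and 10.8 times Srm with 4-OI, against 3.71, 3.47 and 3.48 times with IFN-γ alone. The spread within each group was small beside the difference of 1.64 on the log2 scale (exact permutation p = 0.1, two-sided, the smallest possible).

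Sat1, spermidine/spermine N1-acetyltransferase, tags polyamines for oxidation or export. It stood at 551, 555 and 666 CPM with 4-OI, against 292, 377 and 353 CPM with IFN-γ alone. Replicate 3 with 4-OI was the highest and IFN-γ replicate 1 the lowest. Sat1 averaged 591 ± 65.6 CPM with 4-OI and 341 ± 43.9 CPM with IFN-γ alone, a 1.73-fold rise (log2 fold change 0.79 ± 0.13, SE; adjusted p = 0.00138 in edgeR), and 1.61-fold without IFN-γ replicate 1. It lies on chromosome X, 153996122 to 153999445, minus strand. Within a library, Sat1 per kilobase was 4.62, 4.58 and 5.47 times Odc1 with 4-OI, against 5.31, 5.72 and 5.66 times with IFN-γ alone. The groups overlapped through 4-OI replicate 3 (difference in log2 ratio -0.19; exact permutation p = 0.2, where the smallest possible is 0.1), and without that library the difference was -0.27.

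Neither the window of Odc1 nor that of Sat1 held any of the 8 motifs, which says only that these letters are not in these 300 bases. The window of Odc1, on the plus strand of chr12:17544623-17544922, was 78.0% G and C, against a median of 52.7% over all promoters of the table. The window of Sat1, on the minus strand of chrX:155216400-155216699, was 60.3% G and C.
Odc1: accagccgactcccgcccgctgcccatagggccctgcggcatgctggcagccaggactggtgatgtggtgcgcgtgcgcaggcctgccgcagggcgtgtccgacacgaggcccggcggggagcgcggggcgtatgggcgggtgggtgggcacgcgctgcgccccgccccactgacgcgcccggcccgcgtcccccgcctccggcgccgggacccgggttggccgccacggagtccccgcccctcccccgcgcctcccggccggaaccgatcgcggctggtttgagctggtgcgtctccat
Sat1: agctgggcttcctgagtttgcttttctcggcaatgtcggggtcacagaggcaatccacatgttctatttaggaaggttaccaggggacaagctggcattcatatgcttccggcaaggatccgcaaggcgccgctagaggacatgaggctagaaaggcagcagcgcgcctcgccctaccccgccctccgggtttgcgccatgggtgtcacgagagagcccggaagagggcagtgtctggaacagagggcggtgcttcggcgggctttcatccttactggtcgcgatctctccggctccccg

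**Figure D3:**
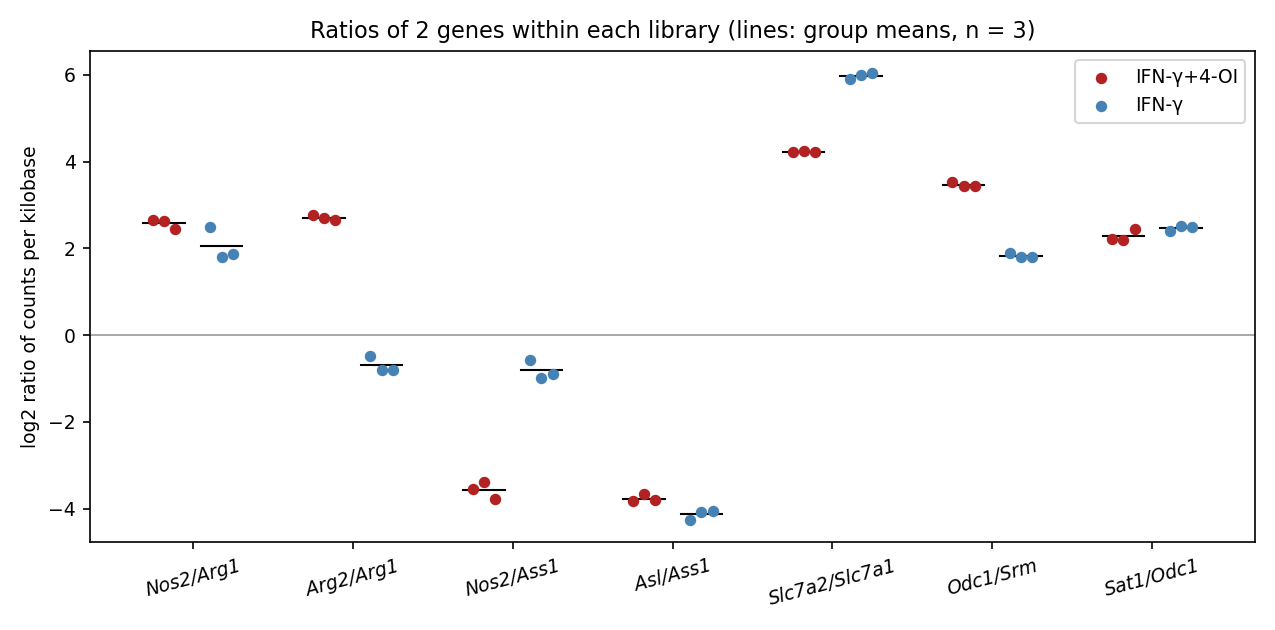
Log2 ratio of counts per kilobase of 2 genes within each library (y axis) for 7 pairs, with IFN-γ+4-OI libraries in red, IFN-γ libraries in blue and group means as lines (n = 3). Red and blue points are separate for 5 pairs and overlap for Nos2/Arg1 and Sat1/Odc1.

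Of 22 further polyamine genes, 21 were tested, 9 of which were higher and 5 lower, with a median log2 fold change of 0.06. Smox, spermine oxidase, rose most, averaging 329 ± 15.6 CPM with 4-OI and 133 ± 6.56 CPM with IFN-γ alone (log2 fold change 1.31 ± 0.08; edgeR adjusted p = 1.19e-05). Adi1, of the pathway that salvages methionine from the by-product of polyamine synthesis, and Amd1, which makes the aminopropyl donor used by Srm, rose by 1.05 and 0.69 on the log2 scale (adjusted p = 2.72e-04 and 3.24e-04 in edgeR). Amd1 has a close copy, Amd2, so its value is uncertain where the counting split reads between them. Amd1 averaged 53.1 ± 0.774 CPM with 4-OI and 32.9 ± 2.29 CPM with IFN-γ alone. Amd2, named after its values were seen, fell, averaging 0.503 ± 0.270 CPM with 4-OI and 1.13 ± 0.228 CPM with IFN-γ alone. Its log2 fold change was -1.23 ± 0.37 (edgeR adjusted p = 0.0263). The following were named after their values were seen, because they act on the product of Odc1. Oaz1 and Oaz2, antizymes that send ornithine decarboxylase to the proteasome, rose 1.90-fold and 1.82-fold (edgeR adjusted p = 0.00122 and 5.33e-04). Azin1, which blocks the antizymes, stood at 112 ± 5.35 CPM with 4-OI and 106 ± 6.01 CPM with IFN-γ alone (log2 fold change 0.07 ± 0.08, edgeR adjusted p = 0.516). Azin2, also an antizyme inhibitor gene but counted here with the conversion genes, fell. It averaged 2.25 ± 0.184 CPM with 4-OI and 5.25 ± 0.786 CPM with IFN-γ alone (log2 fold change -1.22 ± 0.16, edgeR adjusted p = 5.11e-04).

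Genes that convert arginine, ornithine and proline into each other were mostly lower. Of 17 listed, 14 were tested, 8 of which fell and 3 rose; the median log2 fold change was -1.03. Aldh18a1, which starts proline and ornithine synthesis from glutamate, averaged 9.96 ± 0.292 CPM with 4-OI and 29.8 ± 2.96 CPM with IFN-γ alone (log2 fold change -1.58 ± 0.10; edgeR adjusted p = 1.33e-05). Prodh, proline dehydrogenase, and Slc25a15, a mitochondrial ornithine carrier, fell by 1.87 and 0.84 on the log2 scale (adjusted p = 1.96e-05 and 1.45e-04 in edgeR). Slc25a2, a further mitochondrial ornithine carrier, rose, averaging 2.42 ± 0.938 CPM with 4-OI and 0.476 ± 0.160 CPM with IFN-γ alone (log2 fold change 2.34 ± 0.37; edgeR adjusted p = 0.00121); it and the next 2 genes were named after their values were seen. Gatm, which uses arginine for creatine synthesis, fell 2.84-fold (adjusted p = 3.12e-04 in edgeR), and Oat, which competes with Odc1 for ornithine, differed by -0.21 on the log2 scale (adjusted p = 0.0713 in edgeR). Oat passed in edgeR with total-count scaling (-0.46, adjusted p = 0.00184) and without IFN-γ replicate 1 (-0.25, adjusted p = 0.00805). It also passed without that library and 4-OI replicate 3 (-0.28, adjusted p = 4.97e-06 in edgeR), but not with any other single library left out. Cps1 and Otc, of the urea cycle in liver, were at 0 counts in every library. Over the 4 pathway lists together, 16 of 53 tested genes were higher and 16 lower, which is 60.4% called, against 48.1% of all genes. With total-count scaling 8 of the 53 were higher and 21 lower, so that 27.6% of these calls were higher, against 24.0% of the calls over all genes.

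**Figure D4:**
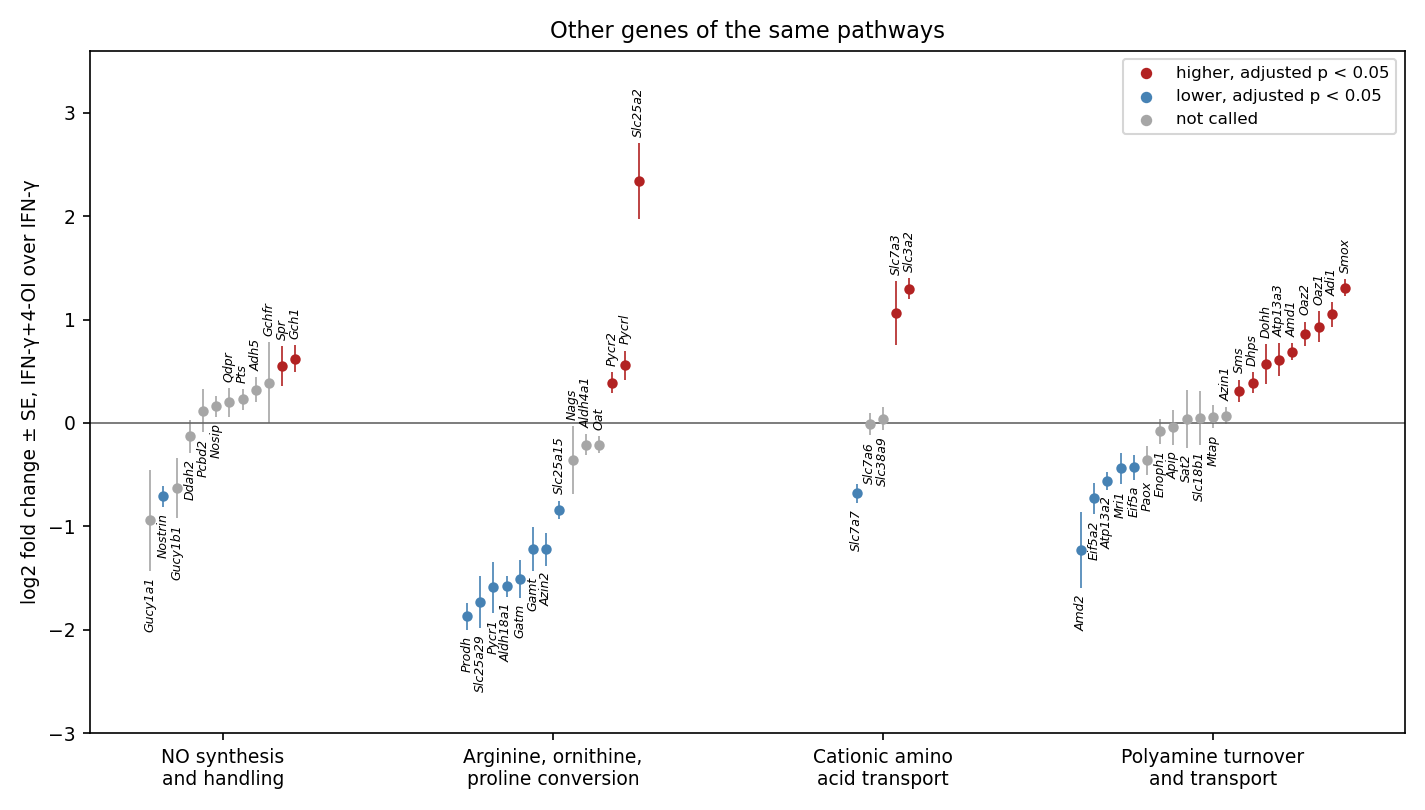
Log2 fold change ± SE (y axis, IFN-γ+4-OI over IFN-γ) of the tested genes of 4 pathway lists, 1 of them not plotted in the nitric oxide list, ordered by value within each list; red is higher and blue lower at an adjusted p under 0.05, and grey was not called. In the conversion list 8 of 14 genes are blue, while in the polyamine list 9 of 21 are red and 5 blue.

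Levels were compared between genes per length, in the deposited TPM. With 4-OI the order was Ass1 (829 ± 53.3 TPM), Sat1 (630 ± 10.4), Slc7a2 (245 ± 35.8), Odc1 (130 ± 10.7), Arg2 (76.5 ± 9.17), Nos2 (70.5 ± 11.4), Asl (60.8 ± 4.35), Slc7a1 (13.1 ± 1.79), Arg1 (11.7 ± 1.07) and Srm (11.7 ± 0.865). In that group the ranges of Arg2 and Nos2, of Nos2 and Asl, of Slc7a1 and Arg1 and of Arg1 and Srm overlapped, and those of other neighbours did not. With IFN-γ alone the order was Ass1 (732 ± 67.9 TPM), Slc7a2 (664 ± 231), Sat1 (474 ± 10.8), Nos2 (423 ± 107), Arg1 (99.5 ± 3.16), Odc1 (85.2 ± 2.11), Arg2 (61.7 ± 6.11), Asl (41.7 ± 0.895), Srm (24.0 ± 0.446) and Slc7a1 (10.7 ± 4.28). There the ranges of Ass1 and Slc7a2 and of Sat1 and Nos2 overlapped. Among all 36706 genes, Nos2 ranked 1578 with 4-OI and 354 with IFN-γ alone, Arg1 ranked 5876 with 4-OI and 1374 with IFN-γ alone, and Odc1 ranked 900 with 4-OI and 1596 with IFN-γ alone. TPM carry no TMM factor, and on that scale the groups of 3 of the 10 genes, Arg2, Ass1 and Slc7a1, overlapped.

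**Figure D5:**
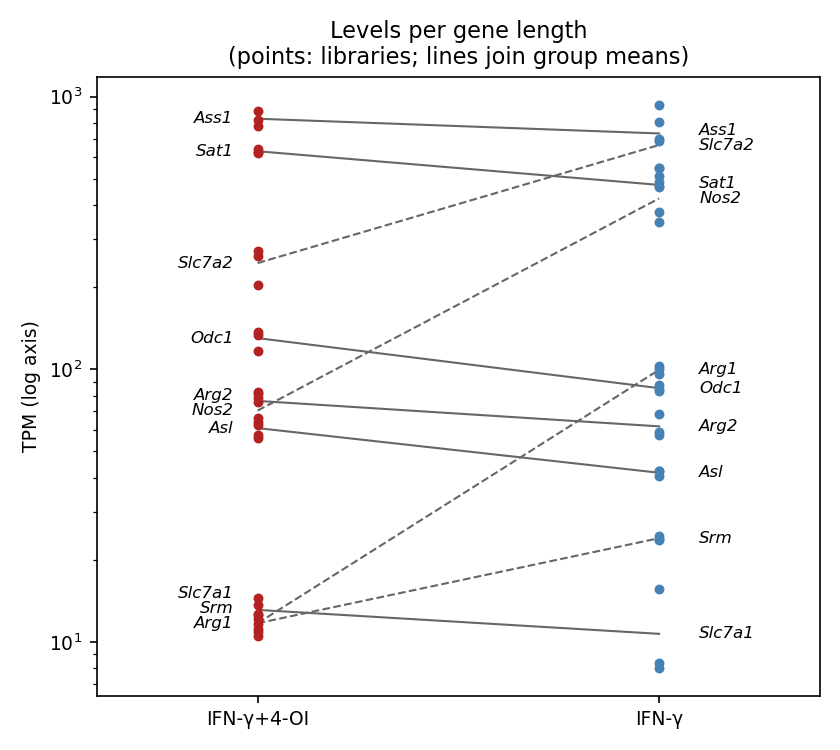
TPM per gene on a log axis in IFN-γ+4-OI libraries (left, red) and IFN-γ libraries (right, blue); each point is a library and lines join the group means, solid where the IFN-γ+4-OI mean is the higher and dashed where it is the lower. The dashed lines are those of Nos2, Arg1, Slc7a2 and Srm, and Ass1 has the highest mean in both groups.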

How the data were processed

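Stranded mRNA libraries of 6 samples were grouped by their titles. The authors deposited 1 table per library with counts and TPM per gene: whole-number counts, per the file headers, and TPM, which the deposited gene lengths and counts give back within a relative tolerance of 1e-06 in 100% of values. HISAT2 and mm10 are named in the submitters' processing notes; which program counted reads, with which strand option and gene models, is not stated in the labels.

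Counts were tested with edgeR 4.0.16 in R 4.3.3 (filterByExpr with a minimum count of 10, TMM factors, robust quasi-likelihood test, Benjamini-Hochberg adjustment over 14011 genes, threshold 0.05), after the script had been tested on simulated data. Few genes changed in that simulation, so it could not check the scaling in data where 48.1% of the genes tested were called. SEs are the fitted log2 fold change over the square root of F. Ratios between genes used counts per kilobase of the deposited length and exact permutation. Promoters came from RefSeq (GRCm38.p6); proteins were not used here, although a comparison of them had been planned. Alternatives were RLE, upper quartile and no scaling factors, no filter, at least 1 CPM in 3 libraries, DESeq2 1.42.0, limma-voom (limma 3.58.1), the replicate number as a block, each library left out, and 2 left out together.

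The members and lists were chosen with earlier results of these data known. Named beside the members are, of each pathway list, the 3 genes with the smallest adjusted p among those called, and for Nos2 and Arg1 the 3 genes nearest to each in profile; others are marked as named after their values were seen. The values of 2 genes that this rule names are not reported here. Pycr3 of the lists was matched as Pycrl through RefSeq synonyms.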

Additional observations from a re-analysis of the deposited data

How the results depend on the processing

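No change of the 10 genes reversed under any of the 15 alternatives, and the 1 call lost was that of Slc7a1 with total-count scaling (log2 fold change 0.44; edgeR adjusted p = 0.0938). At an adjusted p of 0.01, 5 of the 10 were higher and 4 lower. Among all genes, 1719 were higher and 5452 lower with total-count scaling, and 2079 were higher at an adjusted p of 0.01, against 3181 higher and 3555 lower. Of the metabolic pathway genes, 8 were higher with total-count scaling against 16. Total-count scaling lowers every log2 fold change by about the shift of the median, -0.27. When both IFN-γ replicate 1 and 4-OI replicate 3 were left out, the differences in log2 ratio were 0.81 for Nos2/Arg1, -2.53 for Nos2/Ass1 and -0.31 for Sat1/Odc1, against 0.52, -2.75 and -0.19; the cause was not tested. Leaving out 1 library at a time gave 0.39 to 0.74, -2.84 to -2.63 and -0.27 to -0.14. Of the genes that overlap Arg2, Vti1b reversed to -0.05 with total-count scaling and to -0.01 without both libraries (-0.01 to 0.31 over libraries left out), and Gm40462 to 0.13 without both (-1.01 to 0.13), neither of which passed with all libraries. Azin1, which did not pass either, reversed to -0.19 with total-count scaling (adjusted p = 0.109 in edgeR). Replicate numbers are shared between groups, but the labels state no pairing, so same-numbered libraries were not treated as pairs. Their deviations from the group means had correlations of 0.265, -0.100 and 0.193. These cannot decide whether libraries were paired, since those of unlike number were not compared. With the replicate block, 6 of the 10 genes were higher and 4 lower, and of all genes 3588 were higher and 3925 lower. At these depths the lowest count of any of the 10 genes in a library was 152, for Srm.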

Other observations

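Transcription factors known to act on Nos2, Arg1 or Odc1 rose in 4 and fell in 7 of 14 cases, with a median log2 fold change of -0.14. Myc, which acts on Odc1 and Srm, averaged 7.47 ± 0.718 CPM with 4-OI and 40.2 ± 0.823 CPM with IFN-γ alone (log2 fold change -2.43 ± 0.10; edgeR adjusted p = 2.31e-06). Srm fell beside it, while Odc1 rose. Pparg, a nuclear receptor that acts on Arg1 in mouse macrophages, averaged 7.67 ± 0.995 CPM with 4-OI and 29.1 ± 2.22 CPM with IFN-γ alone (log2 fold change -1.92 ± 0.12; edgeR adjusted p = 1.19e-05). The 4 factors that rose were Cebpb, Hif1a, Stat3 and Nfe2l2, by 0.98, 0.42, 0.42 and 0.62 on the log2 scale. Their adjusted p were 0.0482, 0.00752, 0.0099 and 5.24e-04 in edgeR. Stat6 differed by 0.02 (adjusted p = 0.85 in edgeR). Among the 7 that fell were also Irf1, Nfkb1, Max and Irf8, with log2 fold changes of -0.92, -0.75, -0.28 and -0.23. Their adjusted p in edgeR were 1.18e-04, 2.7e-04, 0.0297 and 0.0395. Apart from Myc and Pparg, the factors given here were named after their values were seen. Whether any of these factors had a part in the changes of Nos2, Arg1, Srm or Odc1 was not tested. Other genes of alternative activation by IL-4 fell in 8 of 10 cases and 1, Ear2, rose, with a median of -1.03, and Arg1 fell by more than any of them. Of all genes tested, 25.4% were lower, and dendritic cell markers also fell in 8 of 10 cases, so the fall was not particular to these genes. Mgl2, a lectin, averaged 22.6 ± 1.59 CPM with 4-OI and 112 ± 10.5 CPM with IFN-γ alone, Ccl17, a chemokine, averaged 93.6 ± 12.4 CPM with 4-OI and 523 ± 119 CPM with IFN-γ alone, and Clec10a, a lectin, 10.6 ± 0.748 CPM with 4-OI and 29.4 ± 4.42 CPM with IFN-γ alone. Chil3, a chitinase-like protein gene named after its values were seen, was not called and averaged 5239 ± 514 CPM with 4-OI and 5085 ± 575 CPM with IFN-γ alone (edgeR adjusted p = 0.810).

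Of 8543 protein-coding genes with a mean of at least 10 CPM, those whose centred log2 CPM over the 6 libraries lay nearest to Nos2 were Top2a, Mcf2l and Bub1, at root mean square distances of 0.0479, 0.0715 and 0.0734. Nearest to Arg1 were Ccnb2, Car4 and Akr1c18, at 0.114, 0.132 and 0.146. The distance counts both the difference between groups and the spread within them.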
